A study of Mus musculus with 16 samples.

Results

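The nuclear genes of oxidative phosphorylation were followed in neonatal mouse ventricles with and without *Lrrc10*, a cardiac leucine-rich repeat protein. Members were the protein-coding genes whose GENCODE symbols start with Nduf, Sdhaf, Uqcr, Cox4 to Cox8 or Atp5, together with *Sdha*, *Sdhb*, *Sdhc* and *Sdhd*. Of the 51912 genes of the table, 101 matched, and 98 of these reached 10 counts, summed over the libraries, in every one of the 4 groups and were tested among the 20159 genes that met this minimum. The testis isoform *Cox8c* had 0 counts in all 16 libraries, and *Cox7b2* and *Ndufb11b* had at most 4 counts in a group. By complex, the tested members were 45 genes of complex I, 8 of complex II, 8 of complex III, 18 of complex IV and 18 of complex V, and by role 83 subunits, 12 assembly factors, the supercomplex factor *Cox7a2l*, the inhibitor *Atp5if1* and *Cox5b-ps*, a copy of *Cox5b* that GENCODE labels protein-coding and that was put in no complex.

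RNA was sequenced from whole ventricles, above and below the ligation, of mice operated on postnatal day 1 and collected 7 days later. WT control mice had sham surgery (WT SH) or myocardial infarction (WT MI), and *Lrrc10*-/- mice, which lack the gene in the whole body, had the same surgeries (KO SH and KO MI). WT mice were C57BL/6 J and the KO was made in a C57BL/6 background of unstated substrain, and each group had 4 libraries. The values are RSEM expected counts, and levels are given as CPM, counts per 1000000 counts of the library, scaled by TMM normalization. A member passed the test when the Benjamini-Hochberg adjusted p of edgeR's quasi-likelihood F-test, adjusted over all tested genes, was under 0.1, with no minimum fold change.

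In the mitochondrial inner membrane, complexes I and II pass electrons from NADH and succinate to ubiquinone, complex III passes them on to cytochrome c, and complex IV reduces oxygen. Complex V, the ATP synthase, uses the proton gradient that complexes I, III and IV build. Most subunits are encoded in the nucleus and a small set in mitochondrial DNA, and assembly factors help build the complexes without staying in them. In the days after birth the mouse heart turns from glycolysis to oxidative metabolism, and several complex IV subunits exist as a ubiquitous isoform and a heart and muscle isoform.

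The libraries had from 33783874 to 57470159 counts, of which the members took from 0.835% to 1.07%. *Lrrc10* had from 26.3 to 35.6 CPM in the 8 WT libraries and 0 counts in the 8 KO libraries. In bulk tissue, fewer cells of a type and less RNA per cell cannot be told apart. A pair of libraries stood apart for these genes. In WT SH replicate 1 the summed level of each complex was 1.09 to 1.15 times the WT SH mean, against at most 1.03 times in the other WT SH libraries. In KO MI replicate 7 the sums were 0.688 to 0.719 times that mean, against at least 0.816 times in the other KO MI libraries. A high level of *Xist*, which the inactive X chromosome transcribes, was found in 2 libraries each of KO SH, WT MI and KO MI and in 0 of WT SH. Genes of the Y chromosome had 137 to 165 CPM in the low-Xist libraries and 0.0676 to 1.33 CPM in the high-Xist libraries. In WT SH they had 160 to 165 CPM, so that by these levels all WT SH libraries were male. The paper states that males and females were equally represented in the RNA sequencing, which these levels do not show for WT SH. Comparisons with WT SH therefore also set a group with 0 high-Xist libraries against groups with 2, and counts of passing members are given below with the high-Xist libraries left out.

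Levels per length differed between members by orders of magnitude. Among the subunits, the mean over the 16 libraries was highest for the catalytic beta subunit *Atp5f1b* in complex V (900.0 CPM per kb of mRNA), *Cox6c* in complex IV (608), *Uqcrb* in complex III (243), *Ndufa5* in complex I (114) and *Sdha*, the flavoprotein, in complex II (89.5). The lowest tested subunits were *Atp5me* (8.78), *Cox6b2* (2.08), *Uqcr11* (8.58), *Ndufb3* (2.73) and *Sdhc* (18.7) in the same order. The 12 assembly factors had a median of 2.44 CPM per kb, from 0.586 for *Sdhaf1* to 14.4 for *Ndufaf4*, so that the highest of them stood below the median subunit of every complex, the lowest of these medians being 33.3 CPM per kb in complex I.

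KO SH was compared with WT SH to show how sham-operated hearts without *Lrrc10* differed from those of WT mice. Here 49 of the 98 members fell and 0 rose, where 7.22% of all tested genes were lower and 5.11% higher. The median log2 fold change of the members was -0.27 and that of all tested genes 0.01. Of the members, 93 lay below 0 and 65 had an unadjusted p under 0.05, as did 22.8% of all tested genes. The falls were small, since only 7 members also reached an absolute log2 fold change of 0.5 (2.53% of all genes did so downward), namely *Atp5f1e*, *Cox7a2l*, *Sdhaf1*, *Ndufs5*, *Atp5me*, *Cox6a1* and *Ndufaf8*. The libraries of KO SH lay wholly below those of WT SH for 50 members, against 10.2% of all tested genes.

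**Figure D1:**
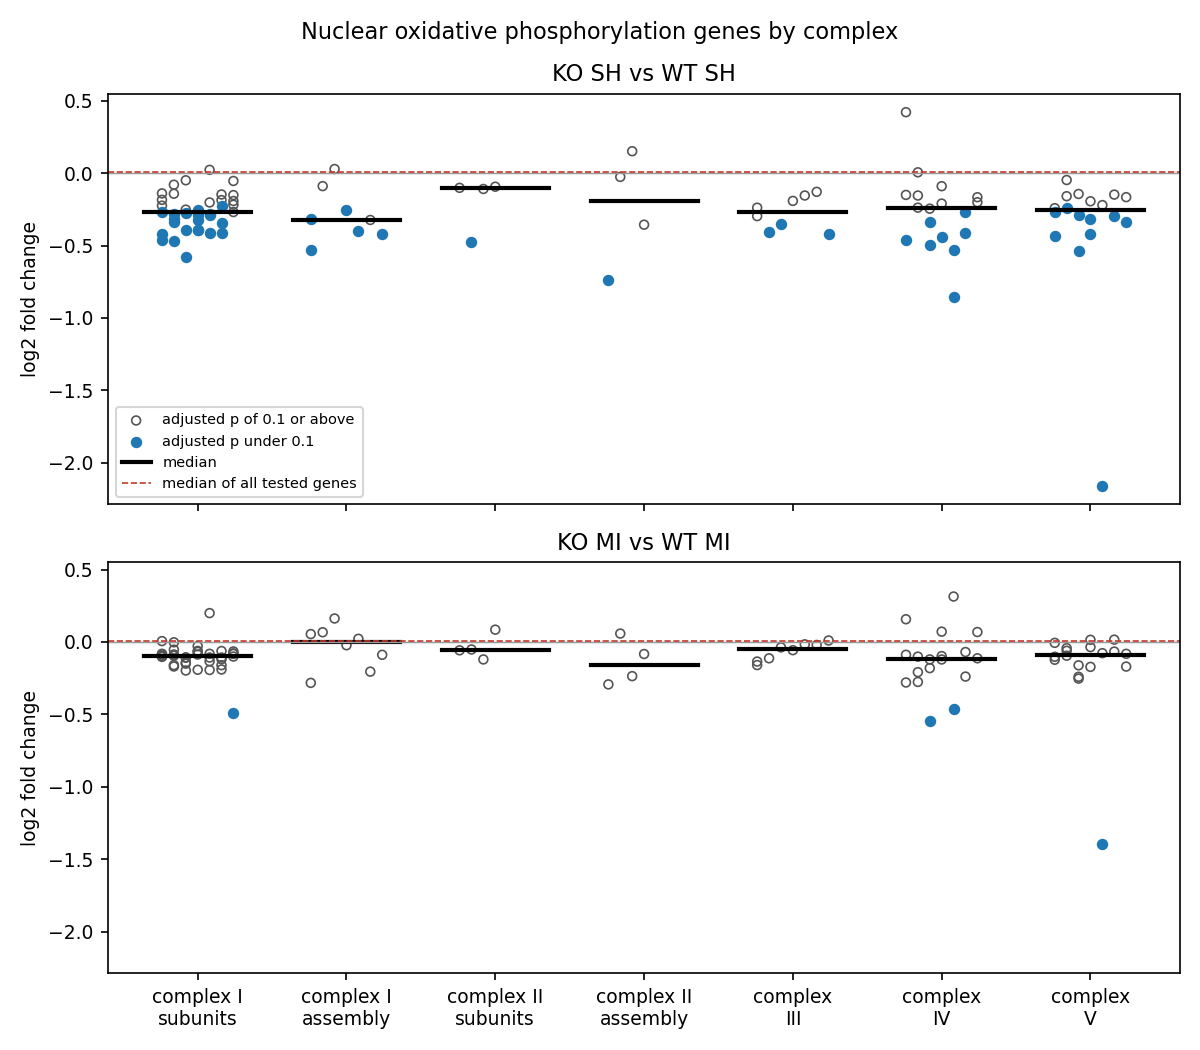
Log2 fold change of each tested member (points) by complex and role in KO SH vs WT SH (top) and KO MI vs WT MI (bottom), with filled points for an adjusted p under 0.1, black bars for the median of each set and a dashed line for the median of all tested genes; Cox5b-ps is not drawn. In the sham comparison the sets lie below 0 with medians from -0.11 to -0.32, and in the MI comparison most points lie close to 0 with Atp5f1e far below.

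In complex I, 26 of 45 members fell in KO SH (median log2 fold change -0.28), and *Ndufb10*, *Ndufa6*, *Ndufs6* and *Ndufb8* had the lowest adjusted p. The 30 accessory subunits, which surround the catalytic core, held 20 of these falls, whereas 1 of the 7 nuclear core subunits, which carry the flavin and the iron-sulfur clusters, fell. That core subunit was *Ndufs8* (log2 fold change -0.42 ± 0.12, SE, adjusted p = 0.0442, edgeR), and the core medians were -0.19 against -0.28 for the accessory subunits. All 7 core values were below 0, and the difference between core and accessory subunits was not tested. The accessory subunit *Ndufb10* of the membrane arm had 87.2, 73.1, 76.6 and 70.1 CPM in WT SH and 56.9, 51.6, 60.6 and 53.8 CPM in KO SH. The groups did not overlap. *Ndufb10* fell 1.38-fold (log2 fold change -0.46 ± 0.08, SE, adjusted p = 0.00209, edgeR).

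*Ndufs5*, an accessory subunit that the study singled out from these same libraries, had 37.4, 23.8, 23.6 and 22.8 CPM in WT SH and 18.3, 15.7, 20.3 and 17.7 CPM in KO SH. It fell 1.498-fold (log2 fold change -0.58 ± 0.14, SE, adjusted p = 0.0209, edgeR), and WT SH replicate 1 was far above the other WT SH libraries. Without that library the log2 fold change was -0.38 (adjusted p = 0.0716, edgeR). In KO MI its level was 18.9, 19.2, 19.6 and 17.8 CPM against 22.7, 24.9, 20.2 and 16.1 CPM in WT MI, ranges that overlap (log2 fold change -0.15, adjusted p = 0.768, edgeR).

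Complex II is the only complex with all its subunits encoded in the nucleus. Of its 4 subunits, *Sdhb*, the iron-sulfur subunit, fell in KO SH, from 101, 87.4, 94.3 and 90.1 CPM in WT SH to 62.9, 69.3, 70.2 and 64.9 CPM (log2 fold change -0.48 ± 0.13, SE, adjusted p = 0.0325, edgeR). *Sdha*, *Sdhc* and *Sdhd* had log2 fold changes of -0.10, -0.11 and -0.09 and did not pass. Complex III showed 3 falls among 8 members, in *Uqcrb* (log2 fold change -0.35), *Uqcr11* (-0.41) and the hinge protein *Uqcrh* (-0.42). The core proteins *Uqcrc1* and *Uqcrc2* (-0.19 and -0.15) and the Rieske protein *Uqcrfs1* (-0.13) did not pass.

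In complex V, 10 of 18 members fell in KO SH and all 18 lay below 0 (median -0.26). These were *Atp5f1a*, *Atp5f1d* and *Atp5f1e* of the catalytic F1 part, *Atp5mc1* and *Atp5mc2*, which encode the same c subunit of the rotor, *Atp5me*, *Atp5mf* and *Atp5mj* of the membrane part and *Atp5pd* and *Atp5pf* of the peripheral stalk. *Atp5f1b* had a log2 fold change of -0.05 (adjusted p = 0.773, edgeR). *Atp5if1*, the inhibitor of ATP hydrolysis by the synthase, was at 81.9, 63.5, 75.4 and 56.7 CPM in WT SH and 62.3, 58.7, 64.4 and 65.1 CPM in KO SH. These ranges overlapped, and *Atp5if1* passed in no comparison.

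Of the assembly factors, 6 of 12 fell in KO SH (median -0.32), beside 42 of 83 subunits (median -0.26). For complex I these were *Ndufaf1* (-0.32), *Ndufaf4* (-0.26), *Ndufaf5* (-0.40), *Ndufaf7* (-0.42) and *Ndufaf8* (-0.53), and *Ndufaf2*, *Ndufaf3* and *Ndufaf6* (-0.09, 0.03 and -0.32) did not pass. For complex II, *Sdhaf1*, which guards the iron-sulfur clusters of *Sdhb*, fell and *Sdhaf2*, *Sdhaf3* and *Sdhaf4* (-0.03, 0.15 and -0.36) did not pass. *Sdhaf1*, also singled out by the study from these libraries, had 1.79, 2.33, 2.15 and 1.60 CPM in WT SH and 1.01, 1.62, 1.06 and 1.02 CPM in KO SH. Only KO SH replicate 2 reached the WT SH range, and the log2 fold change was -0.73 ± 0.23 (SE, adjusted p = 0.0588, edgeR). It stayed between -0.92 and -0.64 when a library was left out, with an adjusted p of up to 0.155 and no longer passing for 5 of the 8 libraries. In KO MI it was at 1.04, 1.299, 1.68 and 0.803 CPM and in WT MI at 1.37, 1.48, 1.15 and 1.95 CPM. KO MI replicates 1 and 7 lay below WT MI and the other two among it, and the log2 fold change of -0.29 did not pass (adjusted p = 0.687, edgeR).

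Assembly genes with other symbols, and further complex III genes, were followed in lists of their own. In KO SH, of 10 tested complex I assembly genes 1 fell (*Ecsit*, log2 fold change -0.31), and of 10 further complex III genes 4 fell, the assembly factors *Uqcc6* (-1.16), *Lyrm7* (-0.80) and *Uqcc2* (-0.35) and the subunit *Cyc1*, cytochrome c1 (-0.24). Of 25 complex IV assembly genes 4 fell, *Cmc1* (-0.53), *Taco1* (-0.34), *Lrpprc* (-0.28) and *Cox10* (-0.24), and of 5 for complex V 1 fell, *Atpaf2* (-0.23). In these lists 0 genes rose. The 13 mitochondrially encoded subunits had a median log2 fold change of 0.01 in this comparison, and 0 of them passed.

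Other abundant gene families were also lower in KO SH. The median log2 fold change was -0.24 for 76 cytosolic ribosomal protein genes (39 fell), -0.21 for 78 mitochondrial ribosomal protein genes (24 fell), -0.23 for 23 mitochondrial import genes (12 fell and 1 rose) and -0.12 for 39 proteasome genes (6 fell). Of the markers of other cells, 1 of 8 for fibroblasts, 2 of 8 for macrophages, 0 of 8 for endothelium, 1 of 7 for erythroid cells, 1 of 9 for skeletal muscle and 0 of 2 for adipocytes fell, and 0 rose. Of the 12 cardiomyocyte markers 8 fell (median -0.26), and their summed level was 82409 to 97160 CPM in WT SH and 74212 to 76312 CPM in KO SH. The log2 fold changes of KO SH against WT SH also differed by mRNA length. Among protein-coding genes of at least 8 CPM that were no members, the median was -0.23 for 50 genes with an mRNA of up to 700 bases and -0.02 for 6065 genes with over 2500 bases, while members of those lengths had medians of -0.33 (26 genes) and -0.25 (20 genes). The part of these shifts in the fall of the members was not tested. The cardiomyocyte sum is mostly that of *Ttn* and *Myh6*, with means of 50363 and 17633 CPM of a mean sum of 89335 CPM in WT SH. When the libraries were scaled to the summed cardiomyocyte markers, which moved the median of all genes up to 0.25, 8 members were lower and 8 higher, and the member median was -0.02. The 8 lower ones were *Atp5f1e*, *Cox7a2l*, *Ndufs5*, *Cox7a1*, *Ndufa6*, *Cox8a*, *Ndufb10* and *Atp5mc2*. The share of all genes that passed in that fit is not given here.

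The count of falls also moved with single libraries. It was 20 without WT SH replicate 1, and 28, 30 and 22 without KO SH replicates 1, 2 and 4, all downward. The 29 falls that no longer passed without WT SH replicate 1 were those of *Atp5f1a*, *Atp5mc1*, *Atp5me*, *Atp5mj*, *Atp5pd* and *Atp5pf* in complex V, *Cox6a1*, *Cox6a2*, *Cox7b* and *Ndufa4* in complex IV, *Uqcr11* and *Uqcrh* in complex III, and 2 assembly factors (*Ndufaf1* and *Ndufaf8*) and 15 subunits, *Ndufs8* among them, in complex I. In the libraries of low *Xist* alone, 4 of WT SH and 2 of KO SH, 5 members fell (*Ndufa6*, *Ndufb10*, *Cox7a1*, *Cox7a2l* and *Atp5f1e*), and the median log2 fold change was -0.23. The shares of all tested genes in these fits are not given here, so that these counts have no background to be read against.

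**Figure D2:**
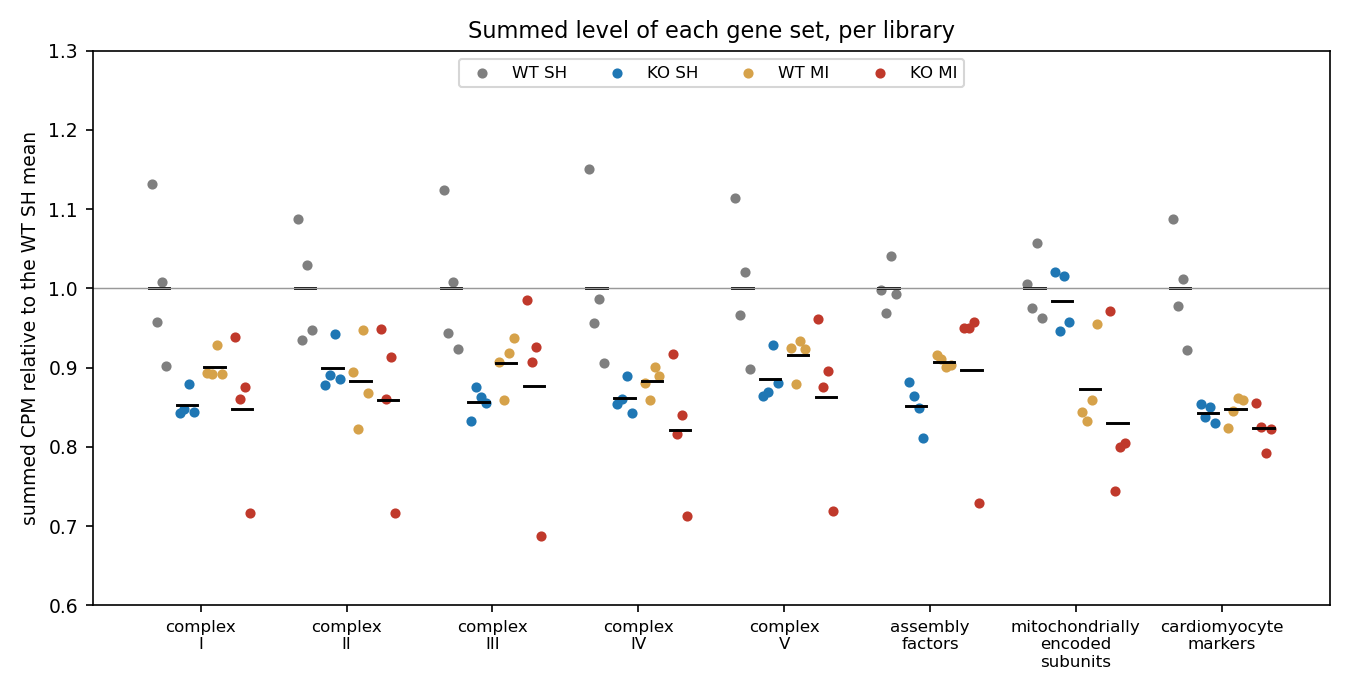
Summed CPM of each complex, the assembly factors, the mitochondrially encoded subunits and the cardiomyocyte markers in every library (points) relative to the WT SH mean, with bars for group means; the vertical axis starts at 0.6. The KO SH sums of complexes I, III and IV lie below all WT SH libraries and those of complexes II and V overlap them, WT SH replicate 1 is the highest point of each complex, and KO MI replicate 7 is the lowest, between 0.688 and 0.719.

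KO MI was compared with WT MI to show how infarcted hearts without *Lrrc10* differed from those of WT mice. Only 4 of the 98 members fell (2.04% of all tested genes were lower) and 0 rose (1.03% were higher). They were *Atp5f1e* and *Cox7a1*, each past an absolute log2 fold change of 0.5, and *Cox7a2l* and *Ndufa3*. The median over the members was -0.10 and that of all genes 0.01, and 83 members lay below 0. The KO MI libraries lay wholly below WT MI for 4 members (*Cox7a2l*, *Cox7a1*, *Ndufa2* and *Atp5pf*), against 3.73% of all genes. An unadjusted p under 0.05 was found for 11 members and for 12.4% of all tested genes. Of the 4 falls, 3 were also among the 49 of 98 members that fell in the sham comparison, so that overlap was likely for any member. Both comparisons share no library, but they share the same fit and its estimate of the spread. Without KO MI replicate 7 the median was -0.02, with 4 falls and 2 rises, and the share of all genes in that fit is not given here. The ribosomal and import gene medians in this comparison were between 0.00 and 0.03 and that of the cardiomyocyte markers -0.02.

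**Figure D3:**
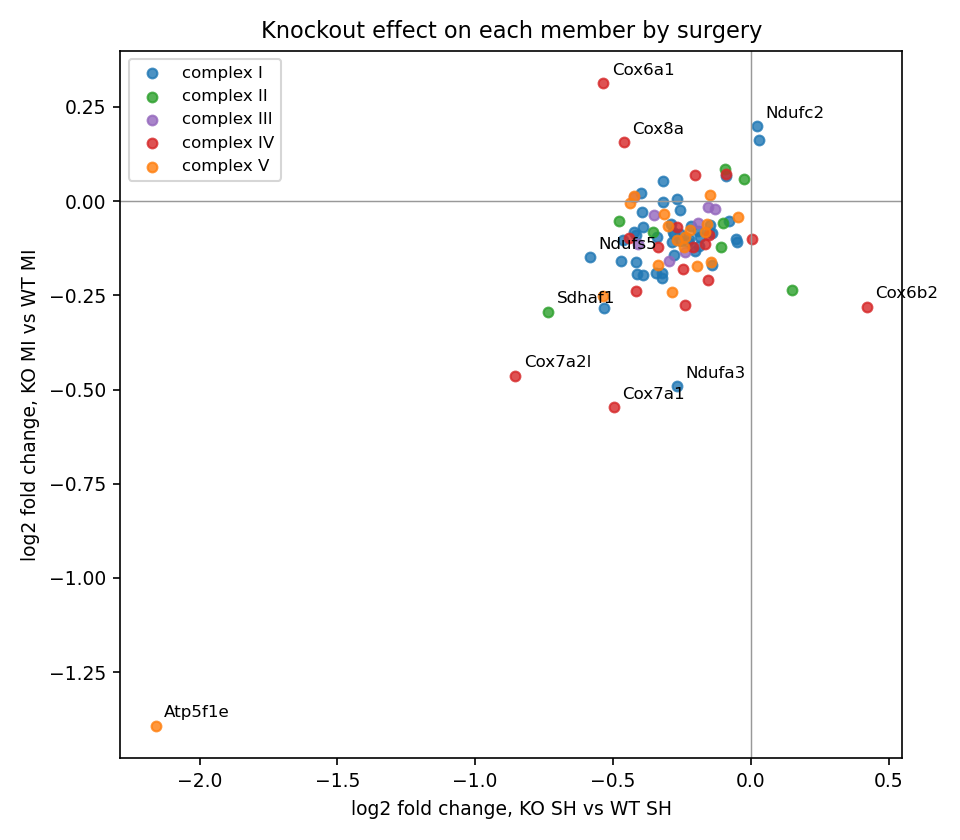
Log2 fold change of each tested member in KO MI vs WT MI (vertical axis) against KO SH vs WT SH (horizontal axis), coloured by complex, with Cox5b-ps not drawn. Most points lie in the lower left, where Atp5f1e stands far from all others at -2.16 and -1.39, and Cox6a1 and Cox8a lie below 0 in sham and above 0 in MI.

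The member with the largest change was *Atp5f1e* (ENSMUSG00000016252), the epsilon subunit of the F1 part and one of the smallest subunits of the synthase. The gene, of 3 exons, is found in GRCm39 on chromosome 2, minus strand, between 174302861 and 174305906. Its level was 26.1, 37.1, 37.8 and 20.3 CPM in WT SH and 6.36, 5.81, 8.22 and 6.69 CPM in KO SH. WT MI was at 6.98, 18.7, 19.4 and 19.2 CPM and KO MI at 7.52, 5.79, 5.74 and 5.40 CPM. The 8 KO libraries stayed between 5.40 and 8.22 CPM, and 7 of the 8 WT libraries lay above them, while WT MI replicate 1 lay among them. *Atp5f1e* fell 4.46-fold in KO SH (log2 fold change -2.16 ± 0.26, SE, adjusted p = 9.61e-05, edgeR) and 2.62-fold in KO MI (-1.39 ± 0.26, adjusted p = 0.00743). Without WT MI replicate 1 the second value was -1.64, and in low-Xist libraries alone it was -1.24 and did not pass (adjusted p = 0.313, edgeR). No other stretch of the genome was near-identical to its coding sequence, at 95% identity over 150 bases. Shorter stretches and the untranslated parts of its mRNA were not searched, so that reads shared with such copies cannot be judged.

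*Cox7a2l* (ENSMUSG00000024248) encodes the factor that joins complexes III and IV in supercomplexes and lies on chromosome 17 from 83765970 to 83824759. It had 58.9, 49.1, 60.4 and 52.4 CPM in WT SH, 30.5, 30.1, 32.6 and 28.9 CPM in KO SH. WT MI was at 42.4, 42.1, 43.5 and 53.3 CPM and KO MI at 35.1, 32.1, 36.2 and 28.1 CPM. All 8 KO libraries were below all 8 WT libraries. It fell 1.81-fold in KO SH (log2 fold change -0.85 ± 0.09, SE, adjusted p = 1.87e-05, edgeR) and 1.38-fold in KO MI (-0.46 ± 0.09, adjusted p = 0.0103). In low-Xist libraries alone the second value was -0.42 and did not pass (adjusted p = 0.274, edgeR). The first exon of some of its transcripts is overlapped by an antisense RNA, *Gm66623*, and whether reads were counted by strand is not given in the sources used here.

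A near-identical copy of *Cox7a2l*, the processed pseudogene *Gm6969* on chromosome 12, moved the other way, so that the level of *Cox7a2l* is uncertain. *Gm6969* had 0.0577, 2.81, 0.286 and 0.121 CPM in WT SH and from 5.19 to 6.18 CPM in KO SH, a rise (log2 fold change 2.89 ± 0.71, SE, adjusted p = 0.0204, edgeR). It had 2.40, 3.10, 3.37 and 0.152 CPM in WT MI and from 4.63 to 6.82 CPM in KO MI (adjusted p = 0.358, edgeR). Libraries of WT mice also differed. WT MI replicate 4, with the least *Gm6969* of WT MI, had the most *Cox7a2l* there (53.3 CPM). WT SH replicate 2, with the most *Gm6969* of WT SH, had the least *Cox7a2l* there (49.1 CPM). How RSEM divided reads between both genes was not tested. With the counts of both summed, the levels were 51.9 to 60.7 CPM in WT SH, 35.1 to 38.1 CPM in KO SH, 44.8 to 53.4 CPM in WT MI and 32.7 to 43.0 CPM in KO MI, still without overlap within a surgery. The summed log2 fold change was -0.63 in KO SH (adjusted p = 0.000191, edgeR) and -0.29 in KO MI (adjusted p = 0.0798), so that both still passed. Near-identical stretches were found for 26 tested members in all, of which 16 fell in KO SH, as against 33 of the 72 members without one. *Ndufb4* shares such a stretch with *Ndufb4c*, which held 23469 counts in all libraries against 15983 for *Ndufb4*.

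*Cox7a1* (ENSMUSG00000074218), the heart and muscle isoform of a small complex IV subunit, lies on chromosome 7 from 29883569 to 29885503. It had 29.6, 25.7, 26.7 and 25.3 CPM in WT SH, 17.9, 18.4, 20.1 and 19.6 CPM in KO SH. WT MI was at 25.1, 21.2, 24.6 and 23.4 CPM and KO MI at 21.2, 14.7, 16.7 and 11.8 CPM. KO SH lay wholly below WT SH, and the highest KO MI library lay just below the lowest WT MI library. The fall was 1.41-fold in KO SH (log2 fold change -0.50 ± 0.12, SE, adjusted p = 0.0185, edgeR) and 1.46-fold in KO MI (-0.55 ± 0.12, adjusted p = 0.0227). *Cox7a1* kept passing in KO MI without any single library, with an adjusted p of at most 0.0802 (edgeR). In a fit of the MI groups alone it did not pass (adjusted p = 0.169, edgeR), nor did *Ndufa3* (adjusted p = 0.237).

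*Ndufa3*, an accessory subunit in the membrane arm of complex I, fell in KO MI and did not pass in KO SH. Its levels were 21.2, 16.9, 23.6 and 21.9 CPM in WT MI and 17.5, 11.97, 12.7 and 17.4 CPM in KO MI, so that WT MI replicate 2 lay among the KO MI libraries and the groups overlapped. The log2 fold change was -0.49 ± 0.12 (SE, adjusted p = 0.0523, edgeR), and the call was lost for 5 of the 8 libraries left out. In KO SH it was -0.27 and did not pass (adjusted p = 0.208, edgeR), and the interaction with surgery did not pass either.

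**Figure D4:**
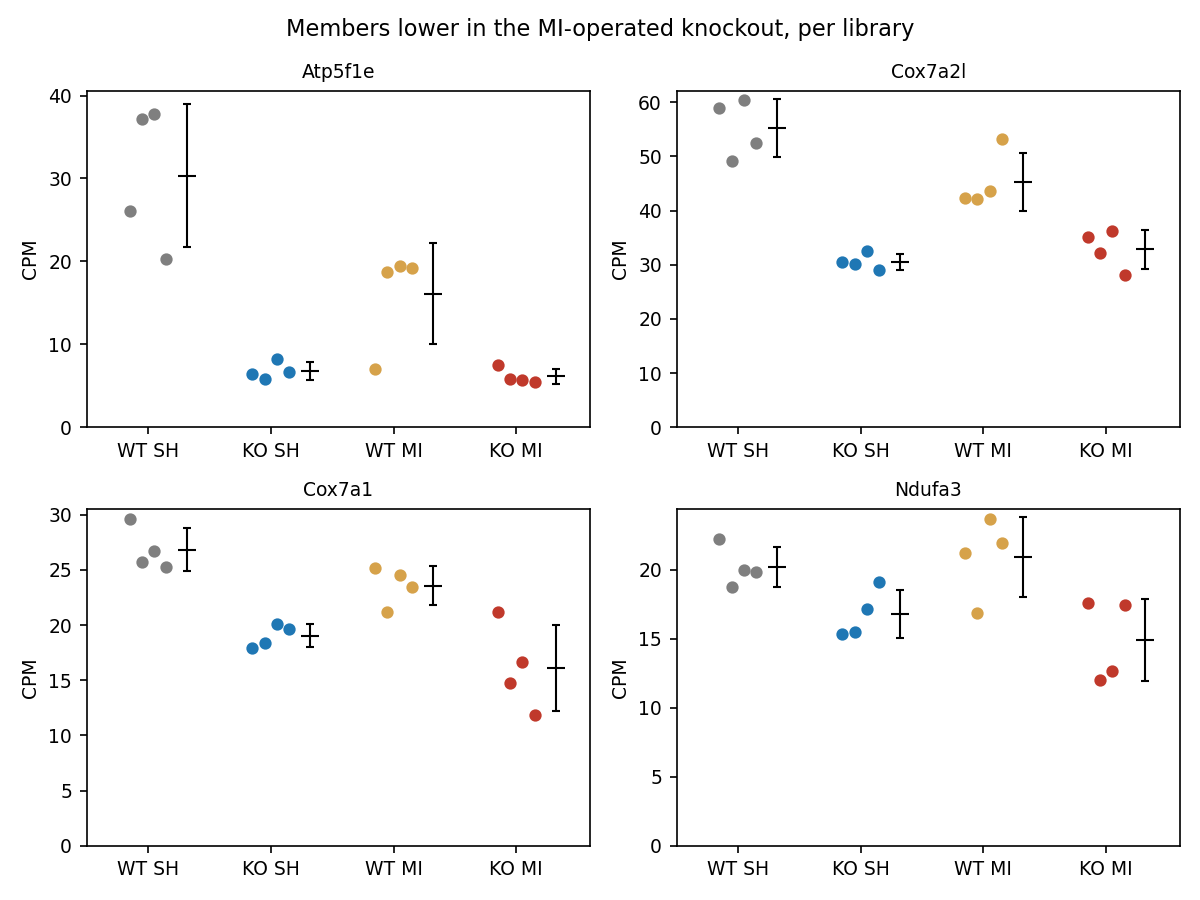
CPM of Atp5f1e, Cox7a2l, Cox7a1 and Ndufa3 in every library (points) by group, with the mean and SD (n = 4) to the right of each group; the vertical axes start at 0. KO libraries lie below WT libraries for Cox7a2l in both surgeries, and 1 WT MI library of Atp5f1e, at 6.98 CPM, lies among the KO libraries.

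The sequences before the start sites of the members that fell in both KO comparisons are shown because these members were lower without *Lrrc10* after either surgery. The 250 bases upstream of the start of the canonical transcript were read from GRCm39, 5′ to 3′ on the strand of the gene, with GGGCGG, the core of the Sp1 site, in capitals on either strand. The window of *Atp5f1e* is chr2:174305907-174306156 on the minus strand and that of *Cox7a1* chr7:29883319-29883568 on the plus strand. That of *Cox7a2l* holds exons of other transcripts and is not shown.
Atp5f1e: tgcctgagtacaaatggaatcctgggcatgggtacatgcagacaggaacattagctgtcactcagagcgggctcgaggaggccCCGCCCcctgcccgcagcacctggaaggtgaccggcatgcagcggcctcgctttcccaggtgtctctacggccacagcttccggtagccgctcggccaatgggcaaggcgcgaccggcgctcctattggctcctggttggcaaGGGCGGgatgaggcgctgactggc
Cox7a1: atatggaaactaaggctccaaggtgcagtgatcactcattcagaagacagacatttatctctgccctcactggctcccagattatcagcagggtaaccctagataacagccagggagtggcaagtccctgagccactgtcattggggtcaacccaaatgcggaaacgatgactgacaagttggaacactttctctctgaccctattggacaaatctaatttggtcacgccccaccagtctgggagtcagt

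The first window held GGGCGG at 24 bases upstream and its reverse complement at 167 bases, and the second held neither. In the same windows of the 14590 tested protein-coding genes, 47.0% held this motif on either strand, as did 34 of the 98 members (34.7%). The letters GCATGCGC, the core of the NRF1 site, were found for 6 members (6.12%, against 3.02% of all genes). CCGGAAGT for GABPA was found for 3 members (3.06% against 3.53%), AAGGTCA for the estrogen-related receptors for 3 (3.06% against 3.16%) and AAGATGGC for YY1 for 0 (1.60% of all genes). None of these 4 was found in either printed window. Matches are a description of letters and were not tested as sites. By position, 6 members share chromosome 10 with *Lrrc10*, at distances from 10.5 to 36.9 Mb, and of these *Ndufa12*, *Uqcr11* and *Atp5f1d* fell in KO SH while the nearest, *Ndufa4l2* and *Atp5f1b*, did not pass.

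In complex IV, 8 of 18 members fell in KO SH (median -0.24) and 2 in KO MI. Isoform pairs were compared per length of mRNA, as the share of the heart and muscle isoform in its pair, with an exact permutation test (two-sided) of the group means, adjusted over 12 tests, whose smallest possible p is 0.0286. *Cox7a1* made up 63.8% ± 2.48 (SD, n = 4) of *Cox7a1* and *Cox7a2* in WT SH, 59.2% ± 2.27 in KO SH, 60.3% ± 2.40 in WT MI and 52.8% ± 3.36 in KO MI. The ranges overlapped by 1 library at least in both KO comparisons (exact permutation p = 0.0571 and adjusted p = 0.098 in each). *Cox8b* made up 37.5% ± 2.76 (SD, n = 4) of *Cox8a* and *Cox8b* in WT SH, 40.8% ± 1.36 in KO SH, 34.9% ± 2.40 in WT MI and 28.4% ± 3.57 in KO MI. Between KO MI and KO SH the ranges did not overlap, and the difference of -12.5 percentage points had the smallest p that the test allows (exact permutation p = 0.0286, adjusted p = 0.098).

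*Cox6a2* made up 59.6% ± 5.01 (SD, n = 4) of *Cox6a1* and *Cox6a2* in WT SH, 61.9% ± 4.43 in KO SH, 54.2% ± 4.32 in WT MI and 45.7% ± 9.15 in KO MI. KO MI again lay wholly below KO SH (exact permutation p = 0.0286, adjusted p = 0.098). Of the 12 tests 7 had an adjusted p under 0.1, all of 0.098, and 0 had one under 0.05. *Cox8b* was among the 7 in both KO comparisons (exact permutation p = 0.0571 each), with a difference in share of 3.35 percentage points for KO SH against WT SH and -6.54 points for KO MI against WT MI. These isoforms are also those of skeletal muscle, whose markers differed between libraries. Of 12 skeletal muscle markers 9 were tested, and 4 of these rose in KO MI against WT MI (median 2.51). *Myh8*, a perinatal myosin, was at 1.59, 42.3, 3.37 and 58.5 CPM in KO MI and at most at 5.10 CPM in the other groups, while *Myh4* and *Myog* stayed under 1 CPM in every library (at most 0.722 and 0.508 CPM). The summed level of the 12, which is mostly that of *Ckm* and *Acta1*, was 350 to 454 CPM in WT SH, 307 to 350 CPM in KO SH, 342 to 404 CPM in WT MI and, by library, 448, 732, 449 and 379 CPM in KO MI. *Ckm* was lowest, at 237 CPM, in KO MI replicate 7 and highest, at 387 CPM, in WT SH replicate 2. *Myh8* was at 58.5 and 1.84 CPM in these libraries, so that the sum does not follow *Myh8*. By library of KO MI, the share of *Cox6a2* was lowest in replicate 2 (33.8%), where *Acta1* was highest (410.2 CPM), and 52.6% in replicate 7, where *Myh8* was highest. The part of these markers in the shares was not tested.

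**Figure D5:**
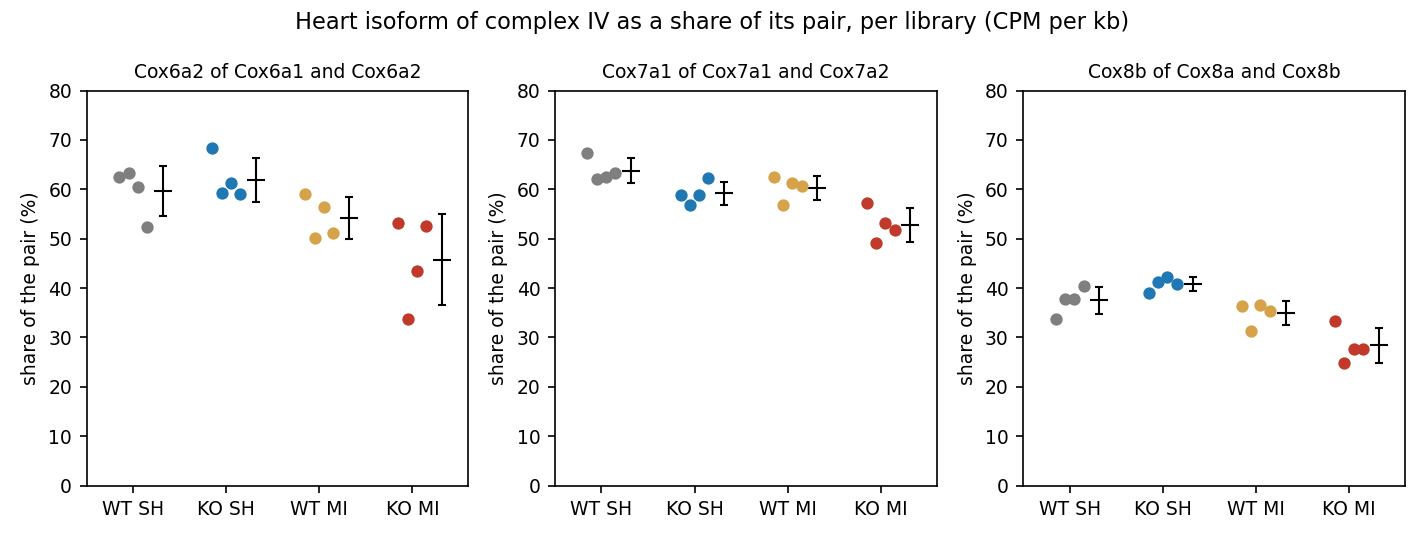
Share of the heart and muscle isoform in its pair, in percent of the summed CPM per kb, in every library (points) by group, with the mean and SD (n = 4) to the right of each group. The KO MI libraries have the lowest mean of all 3 pairs, 45.7%, 52.8% and 28.4%, and the KO SH mean is above the WT SH mean for Cox6a2 and Cox8b, with ranges that overlap.

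Behind these shares, *Cox6a1* and *Cox8a* rose from KO SH to KO MI and *Cox8b* fell (log2 fold change -0.34, adjusted p = 0.0263, edgeR). *Cox6a1*, the ubiquitous isoform, had 8.02, 7.54, 7.69 and 8.15 CPM in WT SH, 4.22, 5.81, 6.49 and 5.17 CPM in KO SH. WT MI was at 7.19, 9.02, 8.57 and 8.32 CPM and KO MI at 9.15, 14.5, 11.3 and 6.10 CPM. It fell in KO SH (log2 fold change -0.53 ± 0.19, SE, adjusted p = 0.0903, edgeR), a call lost for 7 of the 8 libraries left out (adjusted p up to 0.244). It rose 1.90-fold from KO SH to KO MI (0.92 ± 0.18, adjusted p = 0.00496, edgeR), where only KO MI replicate 7 lay within the KO SH range. *Cox8a*, the ubiquitous partner of *Cox8b*, had 24.8, 19.9, 21.2 and 15.96 CPM in WT SH, 15.7, 13.9, 14.9 and 15.2 CPM in KO SH. WT MI was at 18.04, 19.97, 17.9 and 17.7 CPM and KO MI at 20.1, 22.7, 21.5 and 17.8 CPM. All KO SH libraries lay below all other libraries. *Cox8a* fell 1.37-fold in KO SH (log2 fold change -0.46 ± 0.10, SE, adjusted p = 0.0136, edgeR) and rose 1.38-fold from KO SH to KO MI (0.46 ± 0.10, adjusted p = 0.00981).

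Of the other pairs, *Cox4i1* and *Cox4i2* passed in no comparison, and *Cox4i2* held 1.16% ± 0.113 (SD, n = 4) of its pair in WT SH and 1.12% ± 0.0737 in KO MI. *Ndufa4*, a complex IV subunit despite its name, fell in KO SH (log2 fold change -0.33 ± 0.10, SE, adjusted p = 0.0428, edgeR) and its isoform *Ndufa4l2* did not pass (-0.09). *Cox7a2* had a log2 fold change of -0.21 in KO SH (adjusted p = 0.169, edgeR) and *Cox6a2* one of -0.42 (adjusted p = 0.0816), which passed. The call of *Cox6a2* was lost for 6 of the 8 libraries left out (adjusted p up to 0.233, edgeR) and with *Xist* class as a covariate (adjusted p = 0.136).

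WT MI against WT SH asked what infarction did in control hearts, and it uses WT SH libraries that the first comparison also uses. Of the members 8 fell and 1 rose, where 2.21% of all genes were lower and 3.11% higher, and the median was -0.15. *Ndufb10*, *Ndufa2* and *Ndufv1* of complex I, *Uqcr11* of complex III, *Cox8b* and *Cox7a2l* of complex IV and *Atp5f1e* and *Atp5mc2* of complex V were lower. *Cox7a2l* and *Atp5mc2* no longer passed when the counts of near-identical pseudogenes were added to their members. *Cox6b2*, known as the testis isoform of a complex IV subunit, rose from 0.750, 0.775, 0.629 and 1.14 CPM to 2.10, 1.38, 1.26 and 1.98 CPM, without overlap (log2 fold change 1.02 ± 0.29, SE, adjusted p = 0.0623, edgeR). In the same comparison 4 of 12 cardiomyocyte markers fell and their mean sum was 0.847 times that of WT SH, while 3 of 8 fibroblast markers (1.21 times) and 2 of 8 macrophage markers (1.46 times) rose, and their part was not tested. The count rested on few libraries. With each library left out in turn it ran from 1 to 22, with *Xist* class as a covariate it was 3, and in low-Xist libraries it was 0. The shares of all genes in those fits are not given here. Of the mitochondrially encoded subunits *mt-Nd5* and *mt-Nd6* fell (median of the 13: -0.20).

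KO MI against KO SH asked the same in the KO, with libraries that the KO comparisons above also use. Here 5 members rose and 5 fell, where 10.2% of all genes were higher and 7.32% lower, and the median was 0.04. *Cox6a1*, *Cox8a*, *Atp5mj* (log2 fold change 0.39), *Ndufb6* (0.29) and *Ndufaf5* (0.33) rose. *Cox6c*, *Ndufv1*, *Cox8b*, *Ndufb11* and *Ndufb2* fell. *Ndufv1*, the flavin-carrying core subunit of complex I, went from 126.6, 123.3, 132.7 and 123.1 CPM to 116, 97.7, 103 and 105 CPM, without overlap (log2 fold change -0.26 ± 0.06, SE, adjusted p = 0.0131, edgeR). Of the 13 mitochondrially encoded subunits 5 fell, among them *mt-Nd5*, *mt-Co1* and *mt-Nd6*, and their median was -0.32. Without KO MI replicate 7, 25 members rose and 4 fell, and the share of all genes in that fit is not given here. Beside this, 7 of 8 macrophage, 7 of 7 erythroid, 4 of 8 fibroblast and 7 of 9 skeletal muscle markers rose and 0 of them fell, as 38 of 76 cytosolic ribosomal protein genes rose and 1 fell. Of the 12 cardiomyocyte markers 4 rose and 2 fell. The part of these shifts in the values of the members was not tested.

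The difference between both KO effects was tested as an interaction, in which 0 members and 0.0248% of all genes passed with edgeR. The lowest adjusted p was 0.150, for *Cox8a*, and 24 members and 13.6% of all genes had an unadjusted p under 0.05. The KO effect lay higher after MI than after sham for 86 of the 98 members, with a median difference of 0.16. That of all tested genes was 0.002. This shift was not particular to the members. The median was 0.25 for cytosolic ribosomal protein genes, 0.20 for mitochondrial ribosomal protein genes and 0.25 for mitochondrial import genes. For mRNAs of up to 700 bases it was 0.18 for members and 0.22 for the other genes of at least 8 CPM. For those over 2500 bases it was 0.10 and 0.02. DESeq2 called 5 members, all higher (*Ndufb10*, *Cox6a1*, *Cox8a*, *Cox7a2l* and *Atp5mc2*), and edgeR called 25, all higher, without KO MI replicate 7. The shares of all genes in those fits are not given here, so that these counts have no background to be read against. In the edgeR fit of all libraries the KO effects after infarction are therefore not shown to differ from those after sham.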

How the data were processed

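RNA of 16 ventricles was sequenced from libraries of a SMARTer Stranded Total RNA kit. The authors deposited RSEM expected counts per gene. The submitters' processing notes name bcl2fastq 2.17, cutadapt 3.4, FastQC, HISAT2 2.2.1, RSEM 1.1.17, DESeq2 and the GRCm39 build, while the study's methods name other trimming and alignment tools, and whether reads were counted by strand is not given in the sources used here. Depth was 33783874 to 57470159 counts, and 3 counts correspond to 0.0577 to 0.0858 CPM.

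Counts were rounded to whole numbers, given symbols from GENCODE (GRCm39), kept where they summed to 10 or more in each group, and fitted over all 4 groups with edgeR 4.0.16 (TMM, glmQLFit, glmQLFTest, R 4.3.3), with p-values adjusted by Benjamini-Hochberg over all 20159 tested genes and a threshold of 0.1. Labels do not say whether libraries of a group share a litter, and p-values measure the spread between these libraries. Near-identical copies were genomic stretches of 150 bases or more at 95% identity to a coding sequence. Named were the passing members with the 20 lowest adjusted p in each comparison, the complex IV isoforms, the assembly factors, *Ndufs5* and *Sdhaf1*, *Atp5if1*, the members of highest and lowest level and up to 5 passing genes of other lists, and genes beyond these were chosen after their values were seen. The members, lists and rules were chosen with earlier results of these data known. High *Xist* means over 100 CPM. Alternatives were DESeq2 1.42.0, other size factors, filters, thresholds, samples and covariates, and the scripts' tests were checked on simulated data.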

Additional observations from a re-analysis of the deposited data

Results flagged for a closer look

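A sample far from the other 3 of its group was looked for in 140 groups of values, of which chance flags about 1 in 20, and 11 were found. In WT MI, *Atp5f1e* was at 6.98 CPM in replicate 1 against 18.7 to 19.4 CPM in the others, *Cox7a2l* at 53.3 CPM in replicate 4 against 42.1 to 43.5 CPM, *Cox8a* at 19.97 CPM in replicate 2 against 17.7 to 18.04 CPM, and *Ndufa4* at 29.3 CPM in replicate 3 against 23.5 to 24.2 CPM. The complex I sum of WT MI replicate 3 was 2389 CPM against 2295 to 2299 CPM.

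In WT SH replicate 1, *Cox6c* was at 373 CPM against 314 to 320 CPM and *Ndufs5* at 37.4 CPM against 22.8 to 23.8 CPM. Among KO SH libraries, *Sdhaf1* was at 1.62 CPM in replicate 2 against 1.01 to 1.06 CPM, and the complex I sum at 2264 CPM in replicate 3 against 2169 to 2183 CPM. Among KO MI libraries, the assembly factors summed to 93.5 CPM in replicate 7 against 121.9 to 122.8 CPM, and *Ndufa4l2* made up 13.2% of *Ndufa4* and *Ndufa4l2* in replicate 2 against 10.2% to 10.4%. The cause of these deviations was not tested.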

How the results depend on the processing

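The count of members that passed moved by over 1.5 times under these settings, and the cause was not tested. Counts over all genes under these settings are not given here. In KO SH against WT SH (49) it was 5 in low-Xist libraries, 29 at an adjusted p under 0.05 and 7 with a log2 change of 0.5 or more. Scaled to the cardiomyocyte markers it was 16, with 8 lower and 8 higher in place of 49 and 0. In KO MI against WT MI (4) it was 2 in a fit of these groups alone (*Cox7a1* and *Ndufa3* were lost), 2 in low-Xist libraries and 2 with the minimum fold. In WT MI against WT SH (9) it was 3 with *Xist* class as a covariate, 0 in low-Xist libraries, 1 at 0.05 and 2 with the minimum fold. Scaled to the cardiomyocyte markers it was 18 (1 lower, 17 higher), with the median of the members reversed to 0.10 and *Ndufv1* reversed to 0.028, where the median of all genes was 0.23. In KO MI against KO SH (10) it was 2 in low-Xist libraries (both lower), 6 at 0.05 and 1 with the minimum fold. The interaction (0) had 5 with DESeq2, and 4 scaled to the cardiomyocyte markers (3 lower, 1 higher), with the member median reversed to -0.047 and that of all genes at -0.20. The low-Xist and cardiomyocyte settings and the sum with pseudogenes were chosen after seeing the data. With 1 library left out in turn the counts were 20 to 55, 3 to 7, 1 to 22, 6 to 29 and 0 to 25 in the same order. The medians of KO SH against WT SH then ran from -0.31 to -0.20 and those of KO MI against WT MI from -0.15 to -0.02. The highest counts came without WT SH replicate 4 (55 and 22), KO MI replicate 1 (7) and KO MI replicate 7 (29 and 25), and the lowest of 20 and 1 without WT SH replicates 1 and 3. Of 21 pairs of libraries with the same replicate number, 3 correlated over 0.1 (-0.13 to 0.18). Among 75 pairs with different numbers it was 9 (-0.15 to 0.19). These correlations show no pairing by number and cannot exclude one. With the replicate block the counts were 71, 6, 20 (19 lower), 27 (6 lower, 21 higher) and 17 (all higher). Replicate number 7 occurs only in KO MI, so that the block also takes that library out of the comparisons. It further fits terms for the other replicate numbers and is thus a separate setting from leaving that library out. In the interaction 17 members passed with the block and 25 without KO MI replicate 7. DESeq2, other size factors, filters or mitochondrial genes left out gave 48 to 57 falls in KO SH and 4 in KO MI.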

Other observations

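The assembly genes with other symbols, and the further complex III genes, were also compared after infarction. In KO MI against WT MI, *Cmc1*, a copper-handling assembly factor of complex IV, fell (log2 fold change -0.39, adjusted p = 0.0477, edgeR) and 0 others of the 50 genes of the 4 assembly lists passed. In WT MI against WT SH, *Ecsit*, *Uqcc6* (-0.88, adjusted p = 0.0169, edgeR) and Fmc1 (-0.34, adjusted p = 0.0452) fell. In KO MI against KO SH, *Uqcc2* (0.33, adjusted p = 0.0204, edgeR) and Coa3 (0.43, adjusted p = 0.0303) rose and Coa7 (-0.22, adjusted p = 0.0406) fell.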
